A study of Mus musculus with 6 samples.

Results

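The cells described here are lung epithelial cells that remained in a sort meant to leave them out. Lungs of SMA-GFP;Tbx4cre;RosaTdTomato mice were digested, cells negative for Epcam, CD31 and CD45 were collected by flow cytometry, and RNA was counted per cell with droplet-based 3′ sequencing. There were 6 samples, 1 for each gate and day: SMA+Tm+, SMA-Tm+ and SMA-Tm- cells on day 21 after bleomycin, an agent that causes lung injury and fibrosis, and the same 3 gates on day 0. In these mice GFP reports smooth muscle actin and TdTomato reports cells in which a Tbx4-driven Cre recombinase acted, and every sample carried all 3 alleles. All cells are in 1 table, in which barcodes end in a suffix from 1 to 6; nothing used here ties a suffix to a gate or a day, so the table was treated as 1 pooled sample and no statistical test was possible. Intervals are 95% and cover counting error only.

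Of 10410 barcodes, 9994 had at least 500 genes and at most 10% of their unique molecular identifiers (UMIs, counted RNA molecules) from mitochondrial mt- genes. A barcode was called epithelial if it held UMIs of 2 or more of Epcam, Cdh1, Krt8, Krt18, Cldn18 and Lamp3, at least 1 of them not a keratin, no Wt1, Upk3b, Msln or Ptprc UMI, and fewer than 3 UMIs of Col1a2 and Col3a1 together. The rule found 117 of the 9994 kept barcodes, 1.17% (exact binomial interval, 0.969 to 1.40%), and the other 9877 formed the comparison group. It found 94 barcodes rich in Sftpc (at least 1% of UMIs, no less than Scgb1a1, and no Foxj1), 17 airway barcodes (a Foxj1 UMI, or Scgb1a1 at 1% or more and above Sftpc) and 6 barcodes that were neither. Of the 17 airway barcodes, 13 held Foxj1 and 4 were rich in Scgb1a1 without it. The members were thus chosen by UMI counts of the same table, so every gene's difference from the other barcodes is a description of the chosen cells and supports nothing by itself.

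The alveolar epithelium consists of type 2 cells, which make surfactant from phospholipid and the surfactant proteins, and thin type 1 cells, across which gas is exchanged. In the conducting airways, club cells secrete uteroglobin (Scgb1a1) and metabolise inhaled chemicals, and ciliated cells, specified by the transcription factor Foxj1, move mucus. The transcription factor Nkx2-1 acts in both compartments and is known to bind the promoters of surfactant protein genes, which is why 2 of those promoters are shown here. The promoters of Lyz1 and Lyz2, neighbouring genes for near-identical lysozymes, are shown because the Sftpc-rich cells differed among themselves in Lyz1. Each line gives the 250 bases before the RefSeq start, 5′ to 3′, on build GRCm38.p6, with the motif CTCAAG in capitals.
Sftpb (chr6:72304360-72304609, plus strand): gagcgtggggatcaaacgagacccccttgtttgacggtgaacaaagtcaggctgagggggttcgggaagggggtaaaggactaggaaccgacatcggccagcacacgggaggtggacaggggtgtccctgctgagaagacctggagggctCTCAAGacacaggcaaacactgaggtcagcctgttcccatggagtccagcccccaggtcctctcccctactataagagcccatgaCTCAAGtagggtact
Sftpa1 (chr14:41131538-41131787, plus strand): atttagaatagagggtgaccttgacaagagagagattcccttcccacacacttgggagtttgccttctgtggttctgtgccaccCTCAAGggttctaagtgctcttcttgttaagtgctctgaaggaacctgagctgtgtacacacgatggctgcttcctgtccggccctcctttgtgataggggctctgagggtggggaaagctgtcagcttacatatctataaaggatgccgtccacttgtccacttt
Lyz1 (chr10:117292869-117293118, minus strand): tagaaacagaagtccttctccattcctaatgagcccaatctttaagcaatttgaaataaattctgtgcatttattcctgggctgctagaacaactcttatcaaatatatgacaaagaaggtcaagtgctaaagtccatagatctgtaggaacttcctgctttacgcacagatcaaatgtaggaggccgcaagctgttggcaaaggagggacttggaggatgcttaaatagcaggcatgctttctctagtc
Lyz2 (chr10:117282273-117282522, minus strand): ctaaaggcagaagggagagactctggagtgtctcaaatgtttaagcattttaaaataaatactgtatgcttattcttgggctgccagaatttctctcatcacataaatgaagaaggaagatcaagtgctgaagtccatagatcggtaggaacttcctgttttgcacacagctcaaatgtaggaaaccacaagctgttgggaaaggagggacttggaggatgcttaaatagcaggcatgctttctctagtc

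CTCAAG, the core of the Nkx2-1 motif, was searched on both strands. Sftpb held it 100 and 15 bases before the start and Sftpa1 166 bases before the start, each on the plus strand. It was found in 4378 of 32851 promoters of this length, 13.3%, and in 1 of 18 starts of other alveolar type 2 genes, 3 of 17 of club and secretory genes and 4 of 23 of ciliated genes. A partial X-box, the element bound by RFX factors at many cilium genes, was found on either strand in 3 of 23 starts of ciliated genes, against 1714 of all 32851 starts, 5.22%. The Lyz1 and Lyz2 windows held no CTCAAG and were identical at 60.8% of positions when laid side by side without gaps.

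Epcam was the antigen of the sort and also a marker of the rule. Its share among epithelial barcodes was thus set in part by the selection. Epcam was counted in 48 and Nkx2-1, a gene outside the rule, in 69 of 94 Sftpc-rich barcodes. In airway barcodes the counts were 13 and 14 of 17. The effect of the sort on Epcam was not tested. A UMI of Epcam was present in 63 of 117 epithelial barcodes (53.8%, interval 44.4 to 63.1%), and in 532 of 9877 other barcodes (5.39%). Among the other barcodes, 474 of 4581 with a Ptprc (CD45) UMI held Epcam, 10.3%, but 3 of 2567 with 3 or more collagen UMIs and no Ptprc, 0.117%. Depth differed as well, with a median of 5407 UMIs in epithelial barcodes and 2692 in the others, 3361 in those with Ptprc and 2943 in those with collagen. Thinned to 1000 UMIs each, which left out 2 epithelial and 350 other barcodes, 17.4% of epithelial and 1.83% of other barcodes held an Epcam UMI. Nkx2-1, which the rule did not use, had a UMI in 85 of 117 epithelial barcodes and in 17 of the 9877 others. Its level was 331 CPM (UMIs of the gene per 1000000 UMIs summed over the group) in epithelial barcodes and 0.677 CPM in the others, a log2 ratio of 8.93, and 8.29 without suffix 4. Nkx2-1, and the claudins Cldn3 and Cldn7 given with the junction genes, thus describe the group as a whole as lung epithelium. They do not do so for every member. Of the 6 barcodes that were neither Sftpc-rich nor airway, 2 held a Nkx2-1 UMI, and some of the 6 held immune or endothelial marker UMIs.

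Members were found under every suffix. They made up 21 of 1323 barcodes of suffix 1 (1.59%), 36 of 1990 of suffix 2 (1.81%), 16 of 1385 of suffix 3 (1.16%), 14 of 3022 of suffix 4 (0.463%), 21 of 1583 of suffix 5 (1.33%) and 9 of 691 of suffix 6 (1.302%). Suffix 4 was low: its interval, 0.253 to 0.776%, lay below those of suffixes 1, 2 and 5 and overlapped those of suffixes 3 and 6. Sftpc-rich barcodes were the majority under each suffix, with 14, 28, 14, 12, 19 and 7 for suffixes 1 to 6, and airway barcodes numbered 6, 5, 2, 2, 1 and 1. Of the barcode sequences in the table, 55 occurred under more than 1 suffix.

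**Figure D1:**
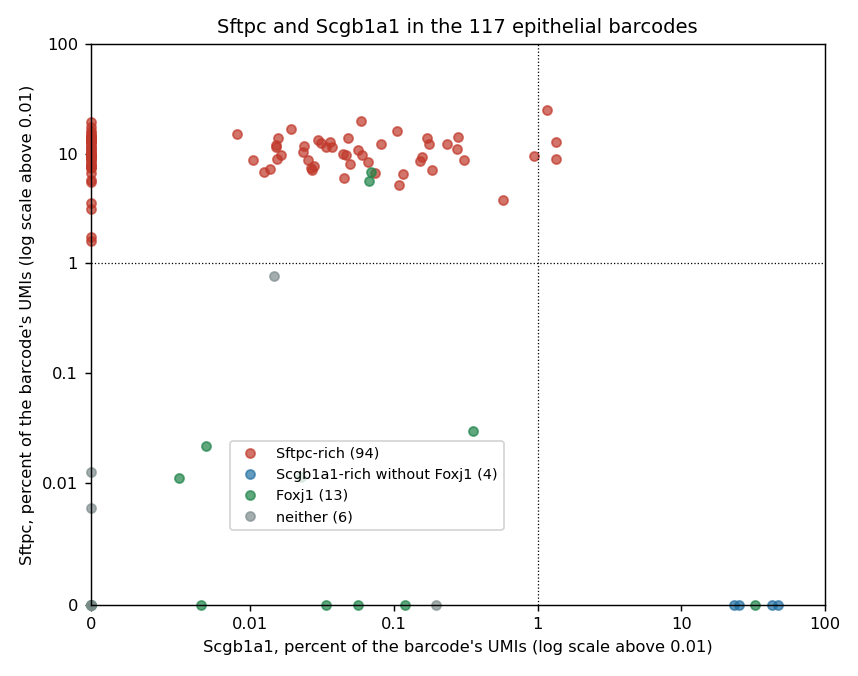
Each point is 1 of the 117 epithelial barcodes, placed by the percent of its UMIs from Scgb1a1 (horizontal) and from Sftpc (vertical), both on a scale that is logarithmic above 0.01; dotted lines mark 1%. The 94 Sftpc-rich barcodes run from 1.59 to 24.8% Sftpc, the 4 Scgb1a1-rich barcodes lie at 23.4 to 47.2% Scgb1a1 with no Sftpc, and 2 of the 13 Foxj1 barcodes lie among the Sftpc-rich ones.

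Sftpc (chr14:70520949-70524081, minus strand, GRCm38, GENCODE M21), which encodes surfactant protein C and served to split the members, took a median of 10.0% of all UMIs in a Sftpc-rich barcode. The lowest of the 94 held 1.59% and the highest 24.8%. Just inside the limit of 1%, 2 Sftpc-rich barcodes lay under 2%, and the highest Sftpc in a barcode outside the class was 6.77%, in a barcode with Foxj1. Scgb1a1 (chr19:9083636-9087958, minus strand), which also served to split the members, was at most 1.34% in a Sftpc-rich barcode and at least 23.4% in the 4 Scgb1a1-rich ones. That gap describes classes set in part by Scgb1a1 itself. Of the 13 Foxj1 barcodes, 1 held Scgb1a1 at 1% or more. Foxj1 (chr11:116330704-116335399, minus strand) was counted 110 times, in 13 epithelial barcodes.

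Against the other kept barcodes, 3733 genes reached 50 CPM in either group. Of these, 380 were at least 4-fold higher in epithelial barcodes with an interval above equality, 10.2%, and 490 at least 4-fold lower, 13.1%. The lists of epithelial programmes hold some genes of the rule and the class split, such as Sftpc, Scgb1a1, Foxj1 and Lamp3. All 4 surfactant protein genes, 18 of 20 measured alveolar type 2 genes, 13 of 16 club and secretory genes and 18 of 19 ciliated genes were higher and none was lower, with median log2 ratios of 8.67, 6.90, 7.16 and 7.25, against a median of -0.28 over all measured genes. Without the genes of the rule and the split these medians were 8.60, 6.16, 7.13 and 7.26. Lipid synthesis genes were higher in 12 of 19 cases (median 2.36), junction and polarity genes in 7 of 11 (median 5.30, and 3.58 without the genes of the rule), ion and fluid transport genes in 7 of 10 (median 4.89) and alveolar type 1 genes in 4 of 9 (median 1.78). Without suffix 2 the median was 9.33 for surfactant and 2.83 for type 1 genes, without suffix 6 it was 5.89 for club genes, and without suffix 1 it was 3.98 for junction genes.

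Surfactant protein genes other than Sftpc were abundant in the epithelial barcodes. Sftpb, whose product spreads the surfactant film, stood at 6789 CPM in epithelial and 17.5 CPM in other barcodes, and Sftpa1, a collectin that binds microbes, at 9377 CPM and 24.6 CPM. Sftpd, another collectin, stood at 1454 CPM in epithelial barcodes, with a UMI in 99 of 117, and at 3.39 CPM in the others, with a UMI in 33 of 9877. Slc34a2, the phosphate transporter of type 2 cells, was at 3382 and 10.7 CPM, and Cxcl15, a lung chemokine, at 4017 and 9.78 CPM. Each of these genes separated the groups in level by more than 300-fold, and in each the highest epithelial barcode contributed 4.22% of the group's UMIs or less. The log2 ratios of Sftpb, Sftpa1, Sftpd and Cxcl15 were 8.60, 8.57, 8.75 and 8.68, and without suffix 2 they were 9.24, 9.29, 9.38 and 9.44.

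Genes of lipid supply accompanied them. Scd1, a fatty acid desaturase, stood at 2299 CPM in epithelial and 53.2 CPM in other barcodes, Fasn, the fatty acid synthase, at 433 and 13.04 CPM, and Lpcat1, which remodels surfactant phosphatidylcholine, at 695 and 25.03 CPM. Chpt1 and Pcyt1a, enzymes of phosphatidylcholine synthesis, were the least different of the list, with ratios of 1.78 (interval 1.43 to 2.21) and 2.38 (1.73 to 3.19). Of type 1 cell genes, Ager was at 498 CPM in epithelial and 2.24 CPM in other barcodes and the water channel Aqp5 at 254 and 1.18 CPM, while Hopx, a further type 1 gene, was at 74.3 and 39.7 CPM and Cav1 at 92.8 and 153 CPM. The list of type 1 genes was thus higher in part. In Sftpc-rich barcodes Ager was at 629 CPM, with a UMI in 84 of 94, and Aqp5 at 345 CPM. Neither gene was thus confined to barcodes without Sftpc. Without suffix 2 the log2 ratio of Hopx was 0.02 in place of 0.90, and without suffix 4 that of Chpt1 was 1.58 in place of 0.84.

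Junction proteins and epithelial regulators outside the rule were also higher. The claudins Cldn3 and Cldn7 were at 291 and 123 CPM in epithelial barcodes, and at 1.59 and 1.00 CPM in the others. Crb3, a polarity protein, was at 131 and 1.44 CPM, and Foxa2, a pioneer transcription factor of endoderm, at 97.1 and 0.294 CPM. Tjp1 and Jup, which non-epithelial cells also make, differed by 2.48-fold (1.89 to 3.20) and 2.12-fold (1.69 to 2.62). Of signalling genes, Fgfr2, the receptor for fibroblast growth factors of the lung mesenchyme, was at 207 and 5.77 CPM, Met at 90.0 and 4.36 CPM, Erbb3 at 51.4 and 1.41 CPM, and the alarmin Il33 at 373 and 15.7 CPM. Without suffix 2 the log2 ratio of Foxa2 was 9.91 in place of 8.37, and without suffix 4 those of Cldn7, Fgfr2 and Il33 were 6.34, 5.76 and 5.25 in place of 6.94, 5.17 and 4.57. The cycling genes measured, Stmn1, Hmgb2 and Tubb5, passed 4-fold in neither direction, and no gene of the list of basal, neuroendocrine and tuft cells reached 50 CPM.

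Transcription factors and splicing factors of epithelium were higher in 4 of 8 measured cases, Nkx2-1, Foxa2, Foxa1 and Ehf, with none lower. Of all measured genes 10.2% were higher and 13.1% lower. Foxa1 was at 57.1 CPM in epithelial and 0.559 CPM in other barcodes, and Ehf, an ETS factor of epithelia, at 58.6 and 0.677 CPM. Cebpa, Gata6, Id2 and Foxp1, which other cells of the lung also express, lay within 4-fold. Without suffix 4 the log2 ratios of Foxa1 and Ehf were 6.01 and 5.73 in place of 6.67 and 6.43, and without suffix 5 the median of the list was 6.50 in place of 3.97.

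Receptors and ligands showed no common direction. The shares over all measured genes were 10.2% higher and 13.1% lower. Of 9 measured receptors 3 were higher, Fgfr2, Erbb3 and Met, and 1 was lower, Ifngr1, a subunit of the interferon gamma receptor, at 30.0 CPM in epithelial and 216 CPM in other barcodes. Of 9 measured ligands 3 were higher, Cxcl15, Il33 and the Notch ligand Jag1, and 4 were lower, Tgfb1, Il18, Ccl9 and Spp1. Spp1, osteopontin, had 4 UMIs in epithelial barcodes and 6092 in the others, at 5.71 and 179 CPM (log2 ratio -4.97, and -5.79 without suffix 5). Tgfb1 was at 28.6 CPM in epithelial and 211 CPM in other barcodes. The median of the ligand list was 1.78, and 0.45 without suffix 2.

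Genes of ion and fluid transport included Atp1b1, a subunit of the sodium pump, with a UMI in 100 of 117 epithelial barcodes, at 615 CPM in epithelial and 36.4 CPM in other barcodes. Scnn1a, a subunit of the epithelial sodium channel, was at 106 and 2.65 CPM, and its level was 70.3 CPM in Sftpc-rich and 210 CPM in airway barcodes. Slc26a9, an anion transporter, had 37 UMIs in 29 Sftpc-rich barcodes and none in airway barcodes.

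Genes of defence were higher in 10 of 13 measured cases and lower in 1, and those of xenobiotic metabolism higher in 6 of 12 and lower in 1. Over all measured genes of this comparison the shares were 10.2% higher and 13.1% lower. Wfdc2, a whey acidic protein, had a UMI in 113 of 117 epithelial barcodes and in 61 of 9877 others. Inside the epithelium it was at 2627 CPM in Sftpc-rich and 2326 CPM in airway barcodes. Muc1, a membrane mucin, was at 306 CPM in Sftpc-rich and 44.2 CPM in airway barcodes, a log2 ratio of 2.79, and 4.46 without suffix 6. Slpi, a protease inhibitor, was the lower one of the defence list, at 55.7 CPM in epithelial and 293 CPM in other barcodes.

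Xenobiotic genes lay on the airway side. In Sftpc-rich barcodes 9 of 14 measured were lower than in airway barcodes and none was higher, where 19% of all measured genes were lower and 6.29% higher. Aldh1a1, an aldehyde dehydrogenase, was at 10.3 CPM in Sftpc-rich barcodes, with a UMI in 4 of 94, and at 807 CPM in airway barcodes, with a UMI in 15 of 17. Gstm1, a glutathione transferase, was at 88.9 CPM in Sftpc-rich and 862 CPM in airway barcodes. Cyp2s1, a cytochrome, was at 14.5 CPM in Sftpc-rich and 619 CPM in airway barcodes, a log2 ratio of -5.42, and -6.67 without suffix 1. The median of the defence list over other barcodes was 8.53, and 6.58 without suffix 6, and that of the xenobiotic list 1.74, and 2.98 without suffix 4.

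By the rule for genes outside the lists, those leading the epithelial barcodes were Pla2g1b, a secreted phospholipase, Npw, Chia1, an acidic chitinase, Arhgdig, Epn3, Ank3, Irx3, Lrriq1, Scgb1c1, Mlc1, Urah and Slco4c1. Pla2g1b was at 257 CPM in epithelial barcodes, with a UMI in 71, and at 0.530 CPM in the others, with a UMI in 12. Ank3, a membrane scaffold, was the most widespread, with a UMI in 92 epithelial barcodes and in 31 of the others. The genes leading the other barcodes were Pid1, Mfap4, Pou2f2, Ccl5, Gas1, Mfap5, Inmt and Sparcl1. Of these, Pid1, Pou2f2, Gas1 and Mfap5 had no UMI in the epithelial barcodes. Mfap4, a matrix protein, had 2 UMIs in the epithelial barcodes and 11189 in the others, where its level was 329 CPM. Its log2 ratio was -6.85, and -4.70 without suffix 4.

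**Figure D2:**
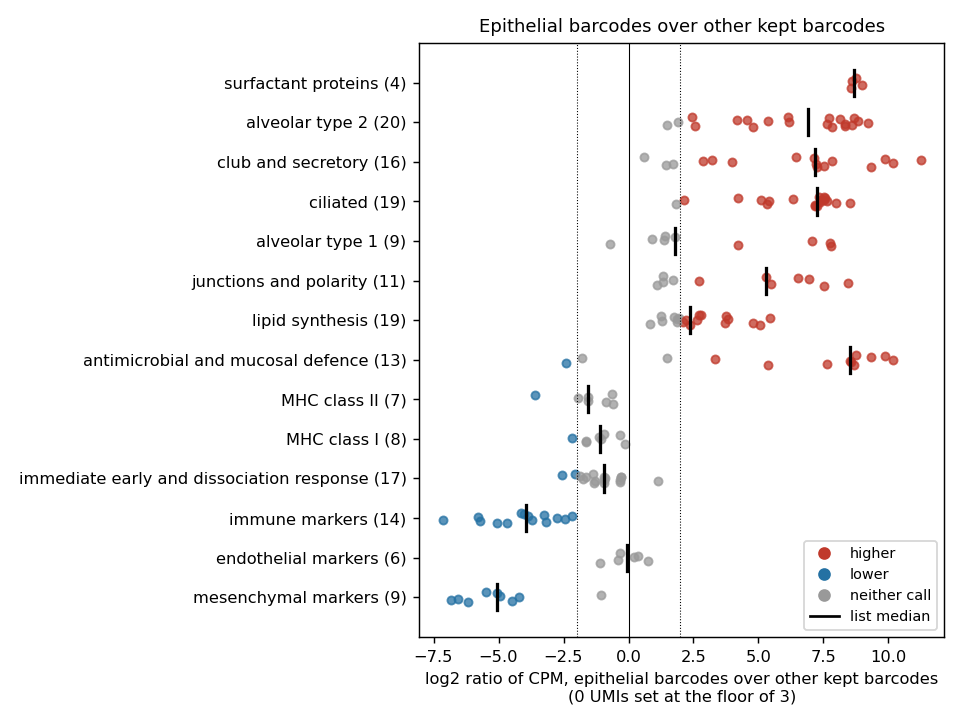
Each point is 1 measured gene of a list, placed by its log2 ratio of CPM in epithelial over other kept barcodes; dotted lines mark 4-fold, black bars list medians, and the number of genes is in parentheses. Surfactant, alveolar type 2, club and ciliated genes lie to the right, immune and mesenchymal markers to the left, and endothelial markers around a median of -0.05.

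Markers of other cell types were counted in the same barcodes. All 14 measured immune markers and 8 of 9 measured mesenchymal markers were lower in epithelial barcodes, against 13.1% of all measured genes. The exception was Col6a1, at 51.4 CPM in epithelial and 107 CPM in other barcodes (log2 ratio -1.06, and 0.69 without suffix 4). Summed over each list, immune markers took 524 CPM in epithelial and 6243 CPM in other barcodes, and mesenchymal markers 200 and 6688 CPM. Without suffix 5 the median log2 ratio of the immune list was -4.99 in place of -3.96. Endothelial markers took 664 CPM in epithelial and 682 CPM in other barcodes. In the epithelial group they were concentrated: 83 of 117 barcodes held none, 12 held 5 or more UMIs, and the highest held 127. Cd3e of T cells, Upk1b, Bnc1 and Nkain4 of mesothelium and Alas2 of red cells were at 0, as were Ptprc, Wt1, Upk3b and Msln by the rule. In all, 20 epithelial barcodes held 5 or more UMIs of an immune, endothelial, mesenchymal or mesothelial list, and without them the median log2 ratio of the endothelial list was -4.01. Scrublet, a doublet caller, marked 75 of the 9994 kept barcodes (0.750%) and none of the epithelial ones.

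Epithelial barcodes had a higher mitochondrial share, a median of 5.77% of UMIs against 2.98% in the others. Over 5% were 68 of the 94 Sftpc-rich barcodes (72.3%) and 9.10% of the other barcodes. Under a stricter barcode filter, with a minimum of 1000 genes and a mitochondrial limit of 5%, epithelial barcodes were 0.599% of those kept and Sftpc-rich ones 61.1% of the epithelial. The part of the mitochondrial share and of depth in the level differences was not tested.

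Genes of the class II major histocompatibility complex, which present antigen, differed inside the epithelium. In Sftpc-rich barcodes Cd74, the class II invariant chain, was at 2461 CPM and had a UMI in 94 of 94, and in airway barcodes it was at 66.3 CPM with a UMI in 7 of 17. H2-Eb1 was at 337 CPM in Sftpc-rich and 5.52 CPM in airway barcodes, on 163 UMIs and 1 UMI, a ratio of 61.0 (interval 10.8 to 2425). Of 6 class II genes measured between the classes, 5 were higher in Sftpc-rich barcodes and none was lower. Of all genes measured there 6.29% were higher and 19% lower. In epithelial over other barcodes, none of 7 measured class II genes was higher and 1 was lower. Over all measured genes of that comparison 10.2% were higher and 13.1% lower, so these counts lay near the background. The lower gene was H2-DMb2, a chaperone subunit, at 7.14 CPM in epithelial and 86.3 CPM in other barcodes. The others hold many Ptprc barcodes: summed over the list, class II genes took 4135 CPM in Sftpc-rich barcodes, 182 CPM in airway barcodes, 7971 CPM in other barcodes with Ptprc and 108 CPM in those with collagen and no Ptprc. Sftpc-rich barcodes thus lay between the Ptprc and the collagen barcodes. The log2 ratio of Cd74 between Sftpc-rich and airway barcodes was 5.21, and 8.39 without suffix 1; that of H2-Eb1 was 5.93, and 3.89 without suffix 1, and that of H2-DMb2 between epithelial and other barcodes -3.60, and -4.25 without suffix 5. Immune marker UMIs in these classes summed to 393 CPM in Sftpc-rich and 110 CPM in airway barcodes. In the Sftpc-rich class 1 barcode held 102 of them, and no other held 5 or more. The part of immune marker UMIs in the class II difference was not tested. Among class I genes B2m, the shared light chain, was at 664 CPM in epithelial and 2085 CPM in other barcodes, a ratio of 0.319 (0.290 to 0.349).

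Sftpc-rich and airway barcodes were then compared with each other. Of 3622 measured genes, 228 were at least 4-fold higher in Sftpc-rich barcodes, 6.29%, and 687 at least 4-fold lower, 19%, and the median log2 ratio was -0.42. All 4 surfactant and all 20 alveolar type 2 genes were higher, with medians of 3.63 and 4.25. All 21 measured ciliated genes and 12 of 17 club and secretory genes were lower, with medians of -5.48 and -4.81. These lists overlap in kind with the genes that split the classes, and the airway group has 17 barcodes, of which single ones carry much of some sums. Without suffix 1 the medians were 5.15 for surfactant and 5.03 for type 2 genes, without suffix 6 that of club genes was -3.04, and under the stricter barcode filter that of ciliated genes was -3.45. Depth was unequal, with medians of 5374 UMIs in Sftpc-rich and 8845 UMIs in airway barcodes.

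**Figure D3:**
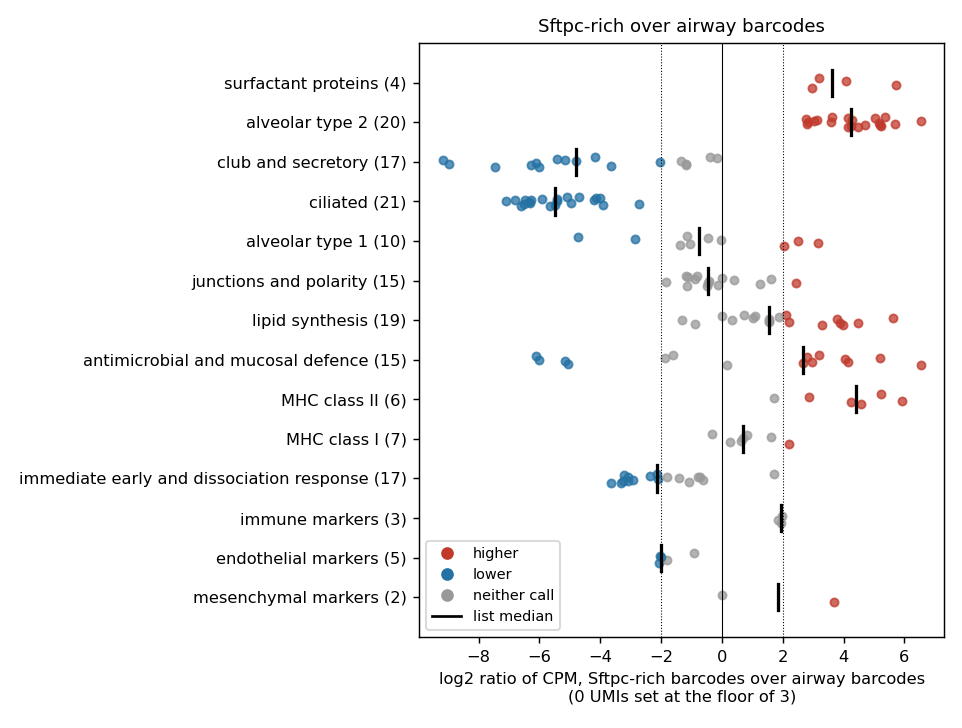
Each point is 1 measured gene of a list, placed by its log2 ratio of CPM in Sftpc-rich over airway barcodes; dotted lines mark 4-fold, black bars list medians, and genes with no UMI in a group are set at the floor of 3 UMIs. Alveolar type 2, surfactant and MHC class II genes lie to the right, club, ciliated and immediate early genes to the left.

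Among alveolar type 2 genes, Napsa, the protease that matures surfactant proteins, had 332 UMIs in 78 of 94 Sftpc-rich barcodes and none in the 17 airway barcodes, at least 41.4-fold higher with the airway group set at a floor of 3 UMIs. Hc, complement component C5, was at 1231 CPM in Sftpc-rich and 33.1 CPM in airway barcodes. Lyz2 was at 21236 CPM with a UMI in all 94 Sftpc-rich barcodes, and at 580 CPM in airway barcodes. Il33 was at 529 and 27.6 CPM, Fgfr2 at 288 and 33.1 CPM, and the transcription factor Cebpa at 232 and 33.1 CPM. Nkx2-1 itself, at 418 CPM in Sftpc-rich and 149 CPM in airway barcodes, differed by 2.80-fold (1.87 to 4.36) and did not reach 4-fold. Without suffix 1, which held both Foxj1 barcodes rich in Sftpc, the log2 ratio was 7.49 for Lyz2 and 3.40 for Cebpa in place of 5.19 and 2.81, and without suffix 2 it was 4.42 for Hc and 4.02 for Fgfr2 in place of 5.21 and 3.12. Epcam had a ratio of 0.918 (0.597 to 1.44) and Cdh1 one of 0.743 (0.554 to 1.01).

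Outside the lists, Lrg1, Apoc1, Bex4, Lrp2, Exosc7, Dram1, Bex2 and Cox6a2 led the Sftpc-rich barcodes. Apoc1, an apolipoprotein, was at 782 CPM in Sftpc-rich and 16.6 CPM in airway barcodes. Dram1, a lysosomal membrane protein, had a UMI in 86 of 94 Sftpc-rich and 5 of 17 airway barcodes, with a log2 ratio of 4.11, and 5.22 without suffix 1. Lrg1, Bex4, Lrp2 and Cox6a2 had no UMI in airway barcodes. Leading in the other direction were 1700007K13Rik, Mt3, Tctex1d4, Gm867, Gm1673, Spef2, Smim5 and BC051019, each with a UMI in at most 2 Sftpc-rich barcodes and in 10 to 13 airway barcodes.

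The airway group was divided by a Foxj1 UMI into Foxj1 barcodes and Scgb1a1-rich barcodes without it. The 13 Foxj1 barcodes had Tppp3, a microtubule protein of cilia, at 4560 CPM with a UMI in each, and Ccdc153, a cilium gene, at 1395 CPM in 12 of them. The 4 Scgb1a1-rich barcodes had Tppp3 at 18.7 CPM and no Ccdc153 UMI. Cyp2f2, the cytochrome of club cells, was at 3185 CPM in the 4 Scgb1a1-rich barcodes, 1160 CPM in the 13 Foxj1 barcodes and 97.2 CPM in Sftpc-rich barcodes. Scgb3a2, a further secretoglobin, had 436 UMIs in 3 of the 4 Scgb1a1-rich barcodes, 127 in 1 Foxj1 barcode and none in Sftpc-rich barcodes. Scgb3a1, Bpifa1, Bpifb1 and Muc5b, mucosal secretory products, came among the epithelial barcodes from 1 alone, under suffix 6, which held 646 UMIs of Scgb3a1. The log2 ratio of Scgb3a1 between epithelial and other barcodes was 11.23, and against the floor 4.26 without that suffix. That of Cyp2f2 was 6.45, and 8.91 without that suffix.

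Several of these barcodes held UMIs from genes of more than 1 list. One Foxj1 barcode had 32.6% of its 23073 UMIs from Scgb1a1 and 217 UMIs of the ciliated list. A pair of Foxj1 barcodes under suffix 1 had 5.65 and 6.77% Sftpc, each with 49 ciliated UMIs, and with 74 and 108 UMIs of alveolar type 2 genes. The 4 Scgb1a1-rich barcodes had no Sftpc UMI, but all 4 held Sftpb, at 1161 CPM, and Sftpa1, at 5002 CPM, and 3 held Ager, at 487 CPM. Scrublet marked none of these as doublets, but it marked only 0.750% of all kept barcodes. Whether any of them holds more than 1 cell type was not tested.

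**Figure D4:**
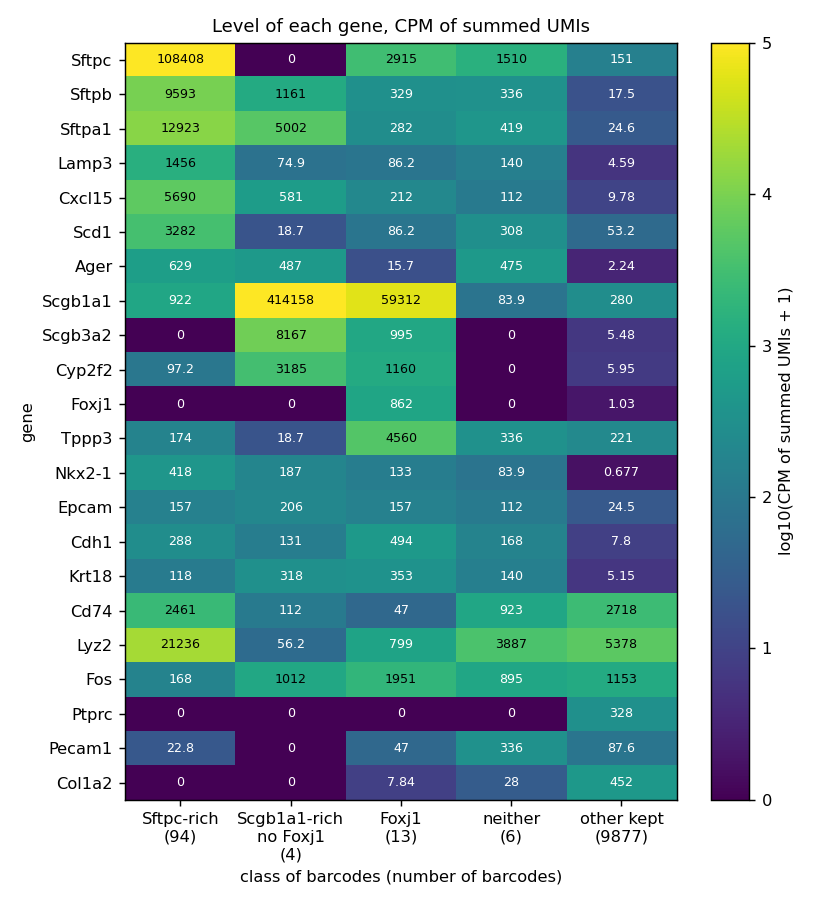
Level of 22 genes in CPM of summed UMIs, written in each cell and coloured by log10(CPM + 1), in Sftpc-rich, Scgb1a1-rich, Foxj1, neither and other kept barcodes. Sftpc is at 108408 CPM in Sftpc-rich and 151 CPM in other kept barcodes, and Sftpa1 and Ager are present in the Scgb1a1-rich barcodes at 5002 and 487 CPM.

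Immediate early genes, which cells switch on during tissue dissociation and other stress, were lower in Sftpc-rich than in airway barcodes in 10 of 17 cases. Of all genes measured between these classes 19% were lower. The median log2 ratio of the list was -2.13, against -0.42 over all measured genes, and was -1.30 under the stricter barcode filter. Fos was at 168 CPM in Sftpc-rich and 1674 CPM in airway barcodes, and Klf6 at 51.7 and 646 CPM. Junb was at 145 CPM in Sftpc-rich, 525 CPM in Scgb1a1-rich and 682 CPM in Foxj1 barcodes, and at 1325 CPM in the other kept barcodes. Summed over the list, these genes took 1762 CPM in Sftpc-rich, 3971 CPM in Scgb1a1-rich and 9927 CPM in Foxj1 barcodes, and 7231 CPM in the others. The list was thus lowest in the Sftpc-rich class. In the whole epithelial group against the others, 2 of the 17 genes were lower, Atf3 and Junb, and none was higher, a share near the 13.1% lower among all measured genes. The log2 ratio of Klf6 between the classes was -3.64, and -4.24 without suffix 1, and that of Atf3 between epithelial and other barcodes -2.55, and -3.14 without suffix 1.

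Of the genes of the transitional state described in injured alveolar epithelium, 2 of 10 measured were higher in epithelial than in other barcodes, Krt8, which the rule used, and the cyclin Ccnd1, at 233 and 33.9 CPM, and 3 were lower, Fn1, Ctgf and Lgals3, where 10.2% of all measured genes were higher and 13.1% lower. Without Krt8, 1 higher gene remained, near the background. The log2 ratio of Fn1 was -3.98, and -4.62 without suffix 5, and that of Ctgf -3.77, and -2.09 without suffix 4. Within the epithelium, Krt8 was at 116 CPM in Sftpc-rich barcodes, with a UMI in 33 of 94, and at 459 CPM in airway barcodes, with a UMI in 15 of 17, a ratio of 0.253 (0.177 to 0.359). Krt19 was at 18.6 CPM in Sftpc-rich and 171 CPM in airway barcodes, a log2 ratio of -3.20, and -4.03 without suffix 4. Cdkn1a, a cell cycle inhibitor, was at 186 and 166 CPM, a ratio of 1.12 (0.736 to 1.76).

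The 6 barcodes that were neither were unlike each other. One, under suffix 2 with 4027 UMIs, held 15 UMIs of Ager, 4 of Rtkn2 and 11 of Hopx, 3 genes of type 1 cells, with no Sftpc UMI and 28 endothelial marker UMIs. The barcodes under suffixes 6 and 1, with 12552 and 6821 UMIs, held 127 and 74 endothelial marker UMIs, and one under suffix 5 held 141 immune marker UMIs. Of the other 2, both under suffix 2, one held 9 UMIs of Krt8, 4 of Krt18 and 3 of Epcam, and the smallest, with 1017 UMIs, held 17 ciliated UMIs. With 1 barcode showing 3 type 1 genes and no Sftpc, the group gives no class of type 1 cells.

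The spread over suffixes within the Sftpc-rich class was counted for genes at 500 CPM or more, and not for lower ones. Of 224 genes at 500 CPM or more, the median ratio of the highest to the lowest suffix was 1.58, after adding 10 CPM, and 6 genes exceeded 4, Xist, Lyz1, Gm42418, mt-Atp8, Zdhhc3 and Gm10263. Gm42418, a transcript that overlaps ribosomal RNA, was at 1744, 1352, 231, 235, 210 and 120 CPM under suffixes 1 to 6, and the mitochondrial gene mt-Atp8 at 1442, 1582, 462, 469, 294 and 598 CPM. Suffixes 1 and 2 were thus high for both, and their part in the other suffix values was not tested. In the other kept barcodes Gm42418 was at 491, 489, 159, 146, 190 and 122 CPM, with the same suffixes high. Sftpc was at 83909, 101958, 120152, 88038, 129124 and 114959 CPM under suffixes 1 to 6, and Sftpb ranged between 8703 and 11049 CPM. Suffixes 1 and 4 were low for Sftpc, and suffix 5 was high for both. Xist, the RNA of the inactive X chromosome, was at 0 under suffixes 1, 2 and 3, and at 1197, 1277 and 878 CPM under suffixes 4, 5 and 6.

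Cd74, H2-Aa and Lcn2, picked after their values were seen, divided the suffixes in the same way, but not every class II gene did. Cd74 in Sftpc-rich barcodes was at 1995, 1788 and 1873 CPM under suffixes 1, 2 and 3, and at 3016, 3050 and 2813 CPM under suffixes 4, 5 and 6. H2-Aa was at 587, 550 and 462 CPM under suffixes 1, 2 and 3, and at 1197, 958 and 878 CPM under suffixes 4, 5 and 6. Lcn2, an iron-sequestering defence protein, was at 335, 344 and 146 CPM under suffixes 1, 2 and 3, and at 634, 630 and 578 CPM under suffixes 4, 5 and 6. For Cd74, Lcn2 and H2-Aa every value of suffixes 4, 5 and 6 lay above every value of suffixes 1, 2 and 3. How many of all genes divide the suffixes in this way was not counted, so the split is not shown to be particular to them. Muc1, Napsa and the class I gene H2-K1 divided them too. Napsa was at 268, 527 and 596 CPM under suffixes 1, 2 and 3, and at 927, 773 and 997 CPM under suffixes 4, 5 and 6. A UMI of H2-Aa was present in 10 of 14, 22 of 28 and 12 of 14 barcodes under suffixes 1, 2 and 3 and in all 12, 19 and 7 under suffixes 4, 5 and 6. H2-Eb1 also divided the suffixes, at 352, 172 and 219 CPM under suffixes 1, 2 and 3, and at 552, 361 and 379 CPM under suffixes 4, 5 and 6. H2-Ab1 did not divide the suffixes, at 352, 241 and 268 CPM under suffixes 1, 2 and 3, and at 446, 521 and 239 CPM under suffixes 4, 5 and 6. Nor did H2-DMa, at 67.1, 34.4, 36.5, 35.2, 67.2 and 99.7 CPM under suffixes 1 to 6, on 3 to 8 UMIs each. Median UMIs of the Sftpc-rich barcodes were 4491, 3089, 6106, 7300, 6217 and 6816, and the sex, the day, the gate and the library behind a suffix cannot be told apart here.

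**Figure D5:**
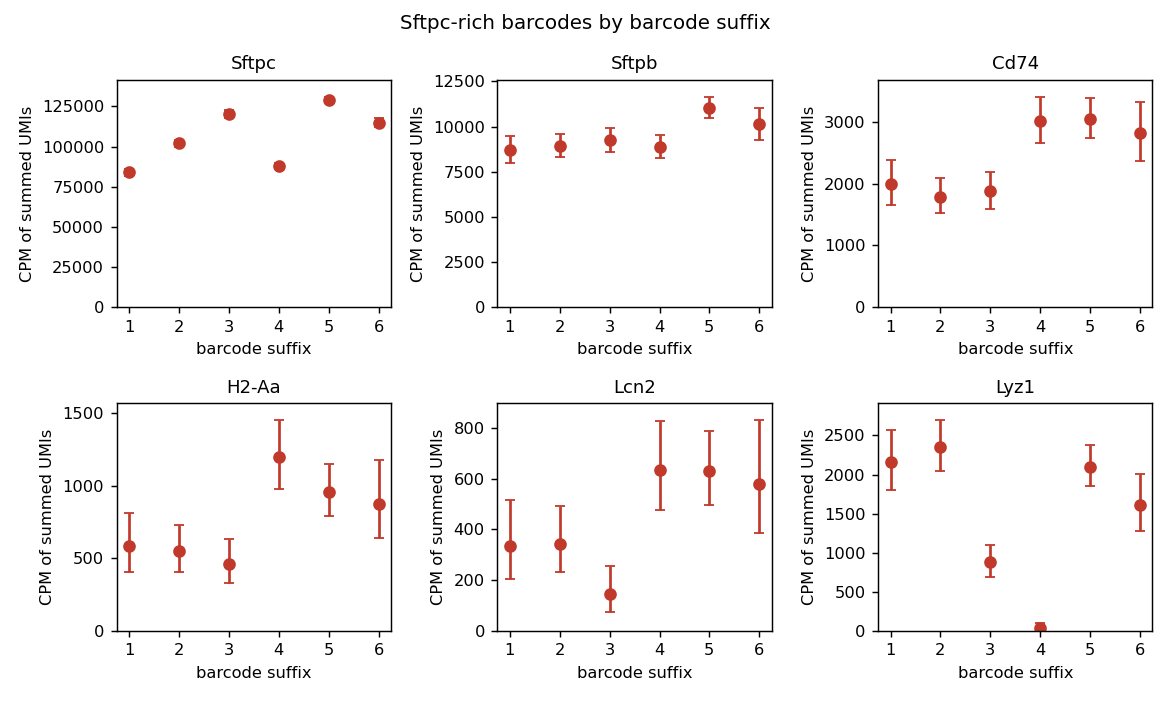
Level of 6 genes in Sftpc-rich barcodes by barcode suffix, in CPM of summed UMIs with 95% Poisson intervals for counting error; the barcodes number 14, 28, 14, 12, 19 and 7. Cd74, H2-Aa and Lcn2 are higher under suffixes 4, 5 and 6, and Lyz1 stands at 35.2 CPM under suffix 4, where no barcode held 10 or more Lyz1 UMIs. Cd74, H2-Aa and Lcn2 were picked after their values were seen. How many of all genes divide the suffixes in this way was not counted.

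Lyz1 (chr10:117287797-117292868, minus strand) marked a small share of the Sftpc-rich cells. Its level was 2163, 2350, 876, 35.2, 2101 and 1616 CPM under suffixes 1 to 6. The UMIs came from few barcodes: 9 of the 94 held 10 or more, and these 9 held 682 of all 740 Lyz1 UMIs, while 51 held none. They numbered 1, 2, 2, 0, 3 and 1 under suffixes 1 to 6, so suffix 4 held no such cell among its 12, and without suffix 2 the log2 bound over airway barcodes was 5.75 in place of 6.53. In these 9 barcodes Lyz1 took a median of 1.19% of UMIs, and Lyz2 0.943%, against a median for Lyz2 of 1.89% in the 51 without Lyz1. Median Sftpc was 9.55% in the 9 and 9.79% in the 51, and median depth 4196 and 5181 UMIs. In the 34 barcodes with 1 to 9 Lyz1 UMIs, median Lyz2 was 2.26%, median Sftpc 12.2% and median depth 6323 UMIs. Airway barcodes held no Lyz1 UMI. Reads that fit both lysozyme genes may have been lost or split between them in the counting, so the levels of this pair are uncertain.

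Scgb1a1 in Sftpc-rich barcodes was likewise uneven, with a UMI in 49 of 94, a highest share of 1.34%, and 65.7% of its 446 UMIs in the 5 highest barcodes. The other kept barcodes had Scgb1a1 UMIs in 581 of 9877.

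Barcodes near the limits of the rule differed in Sftpc. Epithelial barcodes with exactly 2 of the 6 markers numbered 16, with a median Sftpc of 8.18%, and 101 held 3 or more, with a median of 9.25%. Barcodes with 1 marker that met all other conditions numbered 107, with a median Sftpc of 0 and 18 immune marker UMIs, and 6 of them held 1% Sftpc or more. A Ptprc UMI excluded 84 barcodes that met the marker condition, with medians of 0% Sftpc and 71 immune marker UMIs, 7 of which held 1% Sftpc or more. The collagen limit excluded 5 and the mesothelial limit 1.

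Sftpc RNA was also counted outside the members, in 778 of the 9877 other barcodes (7.88%), in 9.80% of those with Ptprc and in 5.88% of those with collagen and no Ptprc. Of its 5120 UMIs there, 3828 (74.8%) lay in 16 barcodes with 1% Sftpc or more. Without those barcodes the level was 38.1 CPM, against 75457 CPM in the epithelial barcodes. The share of other barcodes with a Sftpc UMI was lowest under suffix 6 and highest under suffix 5: 6.14, 7.73, 8.47, 7.05, 11.97 and 4.69% held one under suffixes 1 to 6. The order differed on the scale of levels: without the barcodes at 1% Sftpc or more, Sftpc in other barcodes was at 87.6, 68.1, 29.4, 18.05, 34.1 and 48.2 CPM under suffixes 1 to 6, highest under suffix 1. Median depth of the other barcodes was 1871, 1775, 2383, 3640, 3511 and 2816 UMIs under suffixes 1 to 6. When barcodes without any of the 6 markers served as the comparison group, the median log2 ratio of the surfactant genes was 11.49 in place of 8.67, and the log2 ratio of Nkx2-1 11.24 in place of 8.93.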

How the data were processed

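Raw UMI counts per gene and barcode were used as the authors deposited them; per the submitters' processing notes, STAR 2.5.1, Cell Ranger 1.3.0 and build mm10 were used. A deposited table of normalized values was not used. The deposited counts of 27998 genes in 10410 barcodes sum to 35262820 UMIs. Barcodes with under 500 genes (318) or over 10% mt- UMIs (105) were removed. Counts were summed per group and scaled to CPM; ratios carry exact conditional binomial intervals, levels exact Poisson and shares Clopper-Pearson intervals, at 95%. A gene was measured at 50 CPM in either group and called at 4-fold with an interval excluding 1; groups with 0 UMIs were set at a floor of 3 UMIs. With 1 pooled sample no test was made. The calling was tested on simulated Poisson counts, drawn under the model that the intervals assume. That test therefore says nothing on spread between cells or suffixes. The members and the 26 gene lists were chosen with earlier results of these data known. Genes named were those of the rule, of each list up to 4 measured genes with the largest and 2 with the smallest ratio, the 12 leading and 8 trailing genes outside the lists by interval bound (8 and 8 for Sftpc-rich over airway), and markers of other cell types; further genes of the figures, of the class descriptions and of the suffix values were chosen after their values were seen. Scrublet (scanpy 1.11.5) was run per suffix; no barcode was removed. Python 3.11.15, numpy 2.4.6, scipy 1.17.1 and matplotlib 3.10.9 were used. Promoters are from RefSeq, GRCm38.p6, gene positions from GENCODE M21.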

Additional observations from a re-analysis of the deposited data

Results flagged for a closer look

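Transcripts of the members' genes appeared in barcodes that no comparison counted as epithelial. The marker rule was met by 9 barcodes that failed the filter on genes or mitochondrial UMIs, with a median Sftpc of 7.41% of UMIs and a highest value of 11.2%, and 8 of the 9 had over 10% mitochondrial UMIs. Sftpc took 1% or more of the UMIs in 16 other kept barcodes, with a median of 5.89%, and 8 of these held a Ptprc UMI. Scgb1a1 took 31.7% of the UMIs in 1 other kept barcode, under suffix 6, which had 27446 UMIs, 4 of the 6 markers and 1 Ptprc UMI. That barcode held 8711 of the 9501 Scgb1a1 UMIs of the other kept barcodes, and without it Scgb1a1 stood at 75.4 CPM in the other barcodes of its suffix.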

How the results depend on the processing

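No paired analysis was possible because the barcodes of all samples are pooled and no statistical test was made. Shares and counts of called genes under the alternatives stayed close to the reported ones in 103 cases and moved in 15. Requiring 1000 genes and allowing 5% mitochondrial UMIs, the share of epithelial barcodes was 0.599%, of Sftpc-rich among them 61.1% and of airway 27.8%, and 416 genes were lower in Sftpc-rich than in airway barcodes. Leaving out each suffix gave epithelial shares between 1.01 and 1.48%, the highest without suffix 4. Genes higher in epithelial barcodes numbered 735 at a minimum of 20 CPM, 1507 with no minimum and 663 at 2-fold; genes lower numbered 960, 1297 and 909. Between Sftpc-rich and airway barcodes 470 were higher at 2-fold, and lower were 1120 at 2-fold and 1166 at 20 CPM or with no minimum. The counts at other minimums and folds follow from more genes being measured or a lower fold.

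Some list medians and single genes had the opposite sign on the log2 scale. In epithelial over other barcodes, the ligand list (1.78) was at -1.13 without barcodes holding 5 or more UMIs of another type, -0.90 as a mean over cells and -0.55 with suffixes weighted equally; the receptor list (-1.08) was at 0.087 at 20 CPM and 0.26 with no minimum. Fmo2 (-2.06) was at 1.12 against barcodes with Ptprc, and S100a8 (-2.45) at 0.14 under the stricter filter. In Sftpc-rich over airway, the antimicrobial list (2.67) was at -0.71 at 20 CPM or no minimum, the transitional list (-0.94) at 0.042 at 20 CPM and 0.10 with no minimum, the receptor list (-1.002) at 0.097 under the stricter filter and the mesenchymal list (1.83) at -0.21 with no minimum. The cause was not tested. Leaving out 1 suffix moved 77 of 162 named genes of epithelial over other barcodes and 76 of 134 of Sftpc-rich over airway by over 1.5 times. Small airway numbers, 17 barcodes with 181012 UMIs, limit the second comparison.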

Other observations

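Red cell transcripts, Hba-a1, Hba-a2, Hbb-bs, Hbb-bt and Alas2, summed to 38.6 CPM in the epithelial barcodes and to 668 CPM in the other barcodes. The sum in the other barcodes came from few of them: 13 held 5 or more of these UMIs, the highest held 10183, and 8940 of 9877 held none. Of the 117 epithelial barcodes 98 held none. In other barcodes with collagen and no Ptprc the sum was 9.43 CPM, below that of the epithelial barcodes. Without suffix 6 the log2 ratio of Hba-a1 was -2.40 in place of -4.57. The near-identical globin copies may share reads. At 1000 UMIs per barcode, 702 genes were detected per airway barcode, 520 per Sftpc-rich barcode and 594 per other kept barcode (medians).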
